A study of Mus musculus with 19 samples.

Results

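The 8 genes described here are used as markers of cardiac fibroblasts or of their activated state: Pdgfra, Tcf21, Cd248, Fap, Meox1, Thy1, Dpt and C7. They were picked by gene symbol from the 29726 genes of the deposited expression table, and each symbol matched 1 row. RNA-seq was run on heart tissue from 19 wild-type C57BL/6NTac mice, aged 2 months, that had been raised without microbes and then given a faecal transplant. The normal microbiome came from wild-type donors and the dysbiotic microbiome from donors lacking Il10, an anti-inflammatory cytokine whose loss makes mice prone to colitis. There were 4 males and 5 females with the normal microbiome, and 5 males and 5 females with the dysbiotic microbiome. The donors' microbiomes were the treatment, so all 19 recipients carried intact Il10 and no heart came from a mouse left germ-free. The study's design text asks how a dysbiotic gut community alters the heart, and its title names profibrotic remodelling.

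Cardiac fibroblasts make and maintain the collagen scaffold of the heart. Resting fibroblasts carry the receptor PDGFRα and the transcription factor TCF21, and after injury or pressure overload many lose part of this resting programme, proliferate and turn on activation genes such as Fap and Meox1, followed by contractile and matrix genes. Cd248 encodes endosialin, a surface glycoprotein of fibroblasts and pericytes in developing or remodelling tissue. Thy1 encodes a small surface glycoprotein that fibroblasts share with neurons and, in mice, with T cells. Dpt encodes dermatopontin, a matrix protein that binds collagen and decorin, and C7 encodes a component of the complement membrane attack complex.

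Values are FPKM, which are read counts scaled for gene length and library size. The labels call the cell type "Cardiocytes", but the RNA came from ground pieces of heart, and both myocyte and stromal genes were present. All 12 cardiomyocyte markers passed the expression filter, with a summed level of 11630 to 14880 FPKM per heart. The other 32 fibroblast identity genes summed to 716 to 986 FPKM, and 31 of them passed. Sex-linked genes matched the labelled sex in 19 of 19 libraries, and mitochondrial genes took 51.1% to 57.4% of summed FPKM. Alb, a liver gene, stood at 31.5 to 208 FPKM in 15 hearts but at 449 in replicate 1 of the normal males and below 1 in replicate 5 of the dysbiotic males and replicates 3 and 5 of the dysbiotic females. Estimates for Cd248, Meox1, Thy1 and C7 are given with and without these 4 libraries. The labels give no cage or preparation batch, so p-values measure the spread between these hearts, and a cage or batch that followed a group cannot be told apart from it.

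The 8 genes spanned a wide range of levels per length. Dpt stood highest at 42.8 ± 3.31 FPKM (mean ± SD, n = 19) and was above every other member in all 19 hearts. Meox1 (3.71 ± 1.07), Cd248 (3.50 ± 0.875), C7 (3.13 ± 1.92) and Pdgfra (2.89 ± 0.180) lay close together, and neighbours in that order traded places between hearts: Meox1 exceeded Cd248 in 13 of 19, Cd248 exceeded C7 in 11, and C7 exceeded Pdgfra in 9. Pdgfra was above Tcf21 (1.91 ± 0.289) in all 19 hearts, while Tcf21 was above Thy1 (1.83 ± 0.321) in 12. Fap, a membrane serine protease of activated fibroblasts, was lowest at 0.288 ± 0.0536 FPKM and reached 1 FPKM in 0 of 19 hearts. The order depended on sex through C7, which ranked 2 of the 8 in both groups of males and 7 in both groups of females.

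**Figure D1:**
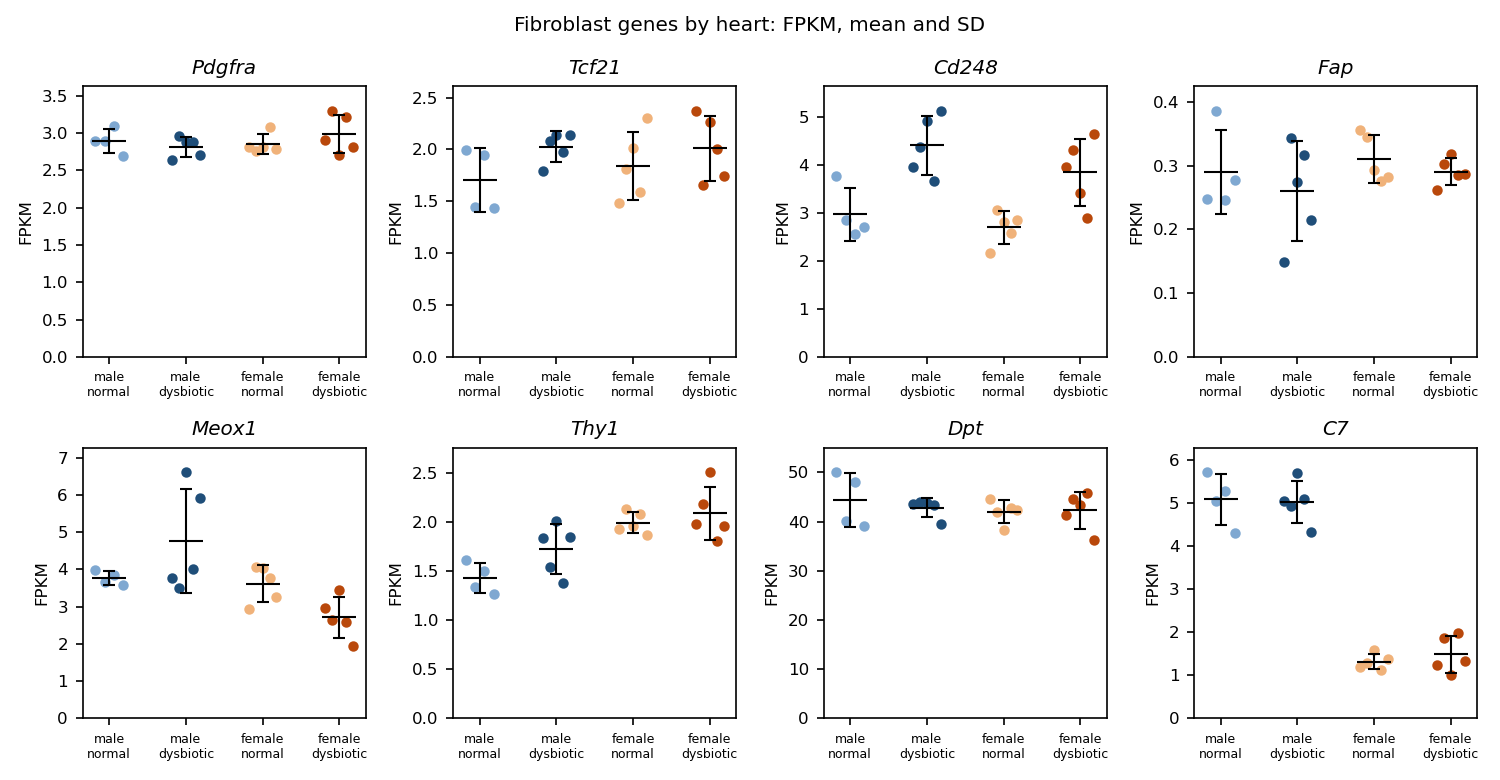
FPKM of each of the 8 genes in each of the 19 hearts (points), with group means and SD (lines and bars), by sex and microbiome; each panel has its own linear axis from 0. C7 lies at 4.30 to 5.72 FPKM in males and 1.01 to 1.99 in females, and Cd248 is higher on average with the dysbiotic microbiome in both sexes.

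Promoters, taken here as 250 bases before to 50 after the gene start, were available from RefSeq (GRCm38.p6) for 4 of the 8 genes: Pdgfra, Tcf21, Dpt and C7. Cd248, Fap, Meox1 and Thy1 are named only. The promoter of C7 is shown because C7 differed most between the sexes, and that of Dpt because Dpt was the highest member and its level was nearly flat. Capitals mark E-boxes (CANNTG, which reads as CANNTG on both strands), the kind of site bound by TCF21 and its E-protein partners. The C7 window is chr15:5063724-5064023 on the minus strand and the Dpt window is chr1:164796413-164796712 on the plus strand.
C7: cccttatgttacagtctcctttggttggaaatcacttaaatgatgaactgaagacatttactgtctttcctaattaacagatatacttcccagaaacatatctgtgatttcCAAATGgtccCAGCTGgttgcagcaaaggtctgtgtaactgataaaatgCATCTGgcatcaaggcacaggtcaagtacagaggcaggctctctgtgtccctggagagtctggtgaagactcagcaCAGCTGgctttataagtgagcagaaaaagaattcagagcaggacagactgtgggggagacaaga
Dpt: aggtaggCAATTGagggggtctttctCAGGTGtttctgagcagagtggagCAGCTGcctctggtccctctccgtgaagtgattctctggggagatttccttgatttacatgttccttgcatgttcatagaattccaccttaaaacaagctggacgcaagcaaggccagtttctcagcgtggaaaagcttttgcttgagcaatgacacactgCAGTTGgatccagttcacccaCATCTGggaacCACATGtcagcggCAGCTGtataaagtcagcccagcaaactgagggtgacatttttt
The Dpt window held 7 E-boxes, the C7 window 4, the Pdgfra window 2 and the Tcf21 window 0, and 72.3% of 32851 promoters of the same length held at least 1. A TATAAA box, searched on both strands, stood once in each of the Dpt and C7 windows and in 13.6% of all promoters. The half-site AGGTCA of nuclear receptors stood once in the C7 window (16.3% of all promoters), and the half-site AGAACA of steroid receptors in none of the 4 (19% of all promoters). These are letter matches only, with no binding measured.

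Cd248 was the member that differed between the microbiomes. In males its level was 3.76, 2.84, 2.56 and 2.69 FPKM with the normal microbiome and 3.94, 4.37, 4.90, 3.66 and 5.12 with the dysbiotic. In females it was 2.17, 3.07, 2.82, 2.58 and 2.85 FPKM with the normal microbiome and 3.95, 4.30, 3.41, 2.89 and 4.63 with the dysbiotic. In each sex, 4 of 5 dysbiotic hearts were above the highest normal heart, and 1 overlapped the normal range. No member separated the microbiome groups fully in either sex, while 4.70% of tested genes did so in males and 4.85% in females. Mean levels were 1.48 times as high in males (2.96 ± 0.545 to 4.40 ± 0.619 FPKM, SD, n = 4 and 5) and 1.42 times as high in females (2.70 ± 0.342 to 3.84 ± 0.694, n = 5 and 5).

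On log2(FPKM + 1), a scale that understates changes of genes near 1 FPKM, Cd248 rose by 0.41 ± 0.08 (SE) over both sexes (95% interval 0.26 to 0.57; limma, adjusted p = 0.00230 over 10866 genes). It was the only one of the 7 tested members that passed, against 5.67% of all tested genes (3.34% higher). The authors' deposited table, which pools the sexes, lists a ratio of 1.46 and a q-value of 0.00014 for Cd248, and q-values of 0.840 or more for the other 7 members. In bulk tissue, more cells of a type cannot be told apart from more RNA per cell.

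Within each sex the estimates for Cd248 were close. The rise was 0.45 ± 0.11 in males (limma, adjusted p = 0.0415), where 1 of 7 members and 1.91% of all genes passed (0.957% higher). It was 0.38 ± 0.10 in females (adjusted p = 0.0552), where 0 of 7 members passed, 2 of them (Cd248 and Meox1) at an unadjusted p under 0.05, and 2.84% of all genes did. The difference between the sexes in this response was -0.07 ± 0.15, with an interval of -0.38 to 0.25 (limma, adjusted p = 0.949). The male call did not hold when any 1 of 10 libraries was left out: replicates 2, 3 and 4 of the normal males, 1, 2, 3 and 5 of the dysbiotic males, or 3, 4 and 5 of the normal females (adjusted p up to 0.145), nor with no expression filter (adjusted p = 0.121) or with males fitted alone (adjusted p = 0.0830). The female call was gained without replicate 1 of the normal males, 4 or 5 of the dysbiotic males, or 4 of the dysbiotic females (adjusted p down to 0.0207), and also with median-ratio scaling (0.36, adjusted p = 0.0479), upper-quartile scaling (0.37, adjusted p = 0.0365) and array weights (0.37, adjusted p = 0.0192).

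**Figure D2:**
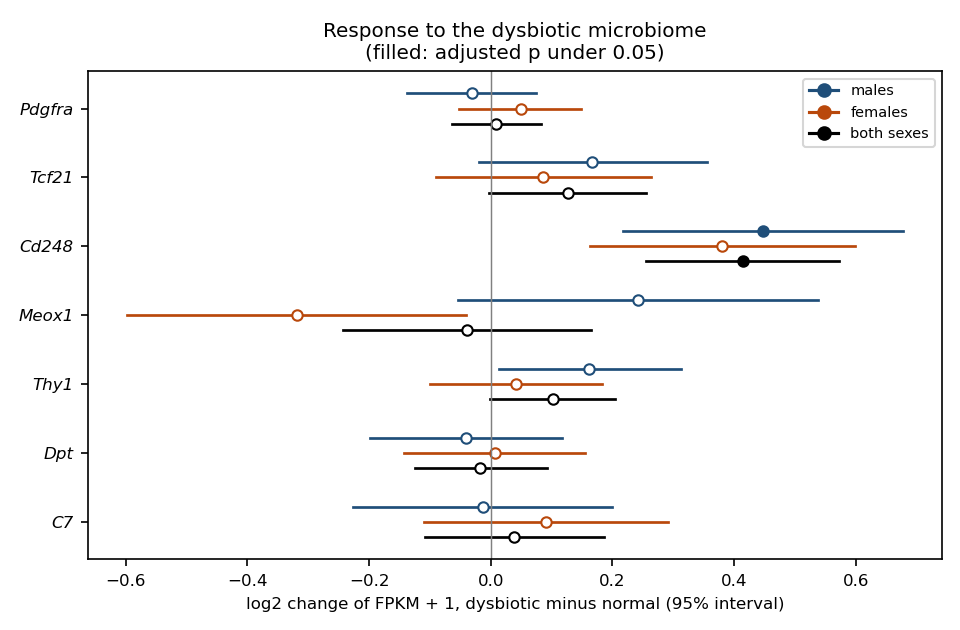
Log2 change (dysbiotic minus normal, log2(FPKM + 1), limma) of the 7 tested members pooled over the sexes and within each sex; points are estimates and bars 95% intervals. Cd248 lies right of 0 in all 3 (0.41, 0.45 and 0.38), and Meox1 lies on opposite sides of 0 in males (0.24) and females (-0.32).

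Cd248 is a gene of 1 exon (chr19:5068078-5070682, plus strand, GRCm38, no overlapping gene) whose transcript has a GC content of 61.3%, above that of 97.8% of tested genes. Libraries differed in how GC-rich genes stood against GC-poor ones. An index of this, the mean log2 deviation of the 10% of genes richest in GC minus that of the 10% poorest, had medians of -0.118 in normal males, -0.094 in dysbiotic males, 0.049 in normal females and 0.115 in dysbiotic females. After a per-library correction for GC content, Cd248 rose by 0.36 (limma, adjusted p = 0.00110) over both sexes, 0.40 in males (adjusted p = 0.0199) and 0.33 in females (adjusted p = 0.0318). Without the 4 libraries at the extremes of Alb the rise over both sexes was 0.42 (adjusted p = 0.00344), in males it was 0.49 (adjusted p = 0.0292) and in females 0.34 (adjusted p = 0.0949). The genes whose levels ran closest to Cd248 across the 19 hearts, after removing group means, were Ptms (r = 0.92) and Fbrs (r = 0.872), given as a description.

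**Figure D3:**
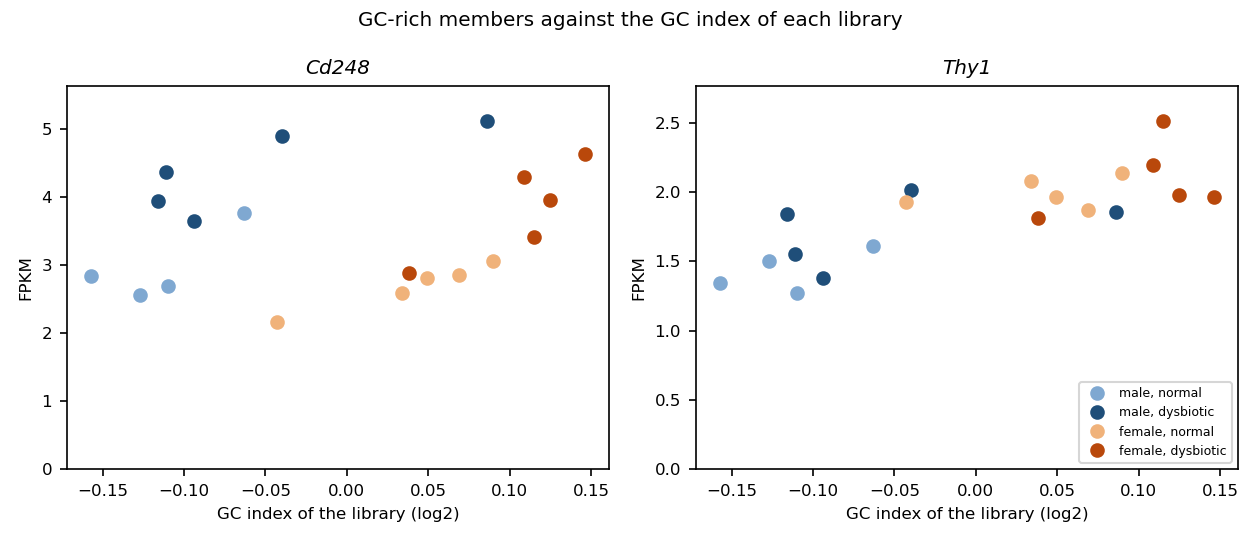
Level in FPKM (vertical, from 0) of Cd248 and Thy1, the members with the most GC-rich transcripts, against the GC index of the same library (horizontal, log2 units), 1 point per heart, coloured by group. The index runs from -0.157 to 0.146, and the males with the normal microbiome all lie below 0 while the females with the dysbiotic microbiome all lie above it.

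Pericytes also carry Cd248, so their markers are given beside it. Of 10 pericyte genes tested, 2 were higher with the dysbiotic microbiome over both sexes and 0 were lower, with a median change of 0.12 against 0.02 for all genes. Ndufa4l2 rose by 0.22 ± 0.05 (limma, adjusted p = 0.0139) and Kcnj8, a potassium channel subunit, by 0.19 ± 0.05 (adjusted p = 0.0488). The estimate for the proteoglycan gene Cspg4 was 0.14 ± 0.04 (adjusted p = 0.0629). In all, 7 of the 10 estimates were positive, and 5 genes had an unadjusted p under 0.05. Those of Rgs5 (-0.02 ± 0.03), Abcc9 (-0.04 ± 0.04) and Vtn (-0.10 ± 0.19) were negative, and these genes were named after their values were seen. The summed pericyte level was 167 to 181 FPKM in normal males, 172 to 181 in dysbiotic males, 174 to 181 in normal females and 170 to 190 in dysbiotic females, so the groups overlapped. No pericyte gene was at 0 in all hearts. The part of pericytes in the Cd248 result was not tested.

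Meox1, a homeobox transcription factor induced in stressed fibroblasts, had estimates of opposite sign in the sexes. In males its level was 3.99, 3.65, 3.85 and 3.58 FPKM with the normal microbiome and 3.76, 3.51, 6.61, 4.02 and 5.92 with the dysbiotic. In females it was 2.93, 4.06, 4.05, 3.77 and 3.26 FPKM with the normal microbiome and 2.95, 2.65, 3.44, 2.59 and 1.94 with the dysbiotic. Replicates 3 and 5 of the dysbiotic males stood above every other heart, and replicate 5 of the dysbiotic females below every other heart, while the microbiome groups overlapped in each sex.

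The log2 change of Meox1 was 0.24 ± 0.14 in males (limma, adjusted p = 0.481) and -0.32 ± 0.13 in females (unadjusted p = 0.0273, adjusted p = 0.260). The female minus male response was -0.56 ± 0.19 with an interval of -0.97 to -0.15, an unadjusted p of 0.00957 and an adjusted p of 0.430 by limma. It did not pass, and in this test 0 of 7 members passed, 1 of them (Meox1) at an unadjusted p under 0.05, against 0.396% of all genes that passed. Over both sexes the change was -0.04 ± 0.10. The male replicate at 5.92 FPKM and the female at 1.94 are among the 4 libraries at the extremes of Alb. Without those 4 the estimates for Meox1 were 0.19 in males (adjusted p = 0.586), -0.30 in females (adjusted p = 0.307) and -0.49 for the difference in response (adjusted p = 0.527). Des, which encodes the muscle intermediate filament desmin (r = 0.886), and Vmp1 (r = 0.878) ran closest to Meox1 across the 19 hearts after removing group means.

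Thy1 and Tcf21 had small positive estimates that did not pass. Thy1 was 1.61, 1.34, 1.5 and 1.27 FPKM in normal males and 1.84, 1.55, 2.02, 1.38 and 1.85 in dysbiotic males. Its change was 0.16 ± 0.07 in males (limma, unadjusted p = 0.0347, adjusted p = 0.309), 0.04 ± 0.07 in females (adjusted p = 0.884) and 0.10 ± 0.05 over both sexes (adjusted p = 0.291). Tcf21, a basic helix-loop-helix factor needed to form cardiac fibroblasts, was 1.71 ± 0.306 and 2.03 ± 0.147 FPKM in normal and dysbiotic males and 1.84 ± 0.329 and 2.01 ± 0.313 in females, and its change over both sexes was 0.13 ± 0.06 (interval -0.002 to 0.26, adjusted p = 0.295). In both sexes and for both genes the microbiome groups overlapped.

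Pdgfra, Dpt and C7 had estimates near 0 for the microbiome. Pdgfra, the receptor used to sort cardiac fibroblasts, was 2.90 ± 0.162 and 2.81 ± 0.136 FPKM in normal and dysbiotic males and 2.85 ± 0.133 and 2.99 ± 0.260 in females, with a change over both sexes of 0.01 ± 0.04 (interval -0.06 to 0.08; limma, adjusted p = 0.937). Dpt was 44.3 ± 5.51 and 42.9 ± 1.86 FPKM in males and 42.0 ± 2.33 and 42.3 ± 3.74 in females, with a change of -0.02 ± 0.05 (interval -0.12 to 0.09, adjusted p = 0.915). The change of C7 was 0.04 ± 0.07 (interval -0.11 to 0.19, adjusted p = 0.840). These intervals bound the size of any change on the log2(FPKM + 1) scale but do not show that there was none.

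Fap was below the expression filter and was compared by exact permutation of log2(FPKM + 0.1). Its level was 0.248, 0.387, 0.247 and 0.278 FPKM in normal males and 0.149, 0.344, 0.274, 0.317 and 0.215 in dysbiotic males. In females it was 0.356, 0.345, 0.293, 0.277 and 0.282 FPKM with the normal microbiome and 0.262, 0.302, 0.319, 0.285 and 0.287 with the dysbiotic. The groups overlapped in both sexes. The mean log2 difference was -0.13 in males (two-sided exact permutation p = 0.571 over 126 splits), -0.07 in females (p = 0.333 over 252 splits, exact permutation) and -0.10 over both sexes (p = 0.362 over 31752 splits within sex, exact permutation).

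No other activation gene passed as higher with the dysbiotic microbiome over both sexes. Of 30 further fibroblast activation genes, 17 passed the filter, and 1 of them was lower by limma (6 had an unadjusted p under 0.05), with a median change of -0.10 against 0.02 for all tested genes. The lower gene was Ccn2, a matricellular growth factor induced by TGF-β, which fell by 0.59 ± 0.13 on the log2 scale (limma, adjusted p = 0.0137). Acta2, Tagln and Cnn1 in this list are also in the smooth muscle list below, and are named because both lists hold them. Their estimates were -0.473, -0.465 and -0.471 in females and 0.226, 0.328 and 0.261 in males. In females the 17 genes had a median change of -0.17 with 3 positive, and 0 passed by limma (8 at an unadjusted p under 0.05). In males the median was -0.04 with 8 positive, and 1 passed as higher (5 at an unadjusted p under 0.05). That gene was Meox2, the paralogue of Meox1, which rose by 0.46 ± 0.09 in males (limma, adjusted p = 0.0122). In females the estimate for Meox2 was -0.05 ± 0.09 (adjusted p = 0.901). The female minus male response of Meox2 was -0.51 ± 0.13 (unadjusted p = 0.00065, adjusted p = 0.104) and did not pass, and the mean over both sexes was 0.21 ± 0.06 (adjusted p = 0.0627).

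Of 32 further fibroblast identity genes, 31 were tested over both sexes, and 2 were higher and 3 lower, with a median change of -0.03. Abca8a, a lipid transporter, rose by 0.35 ± 0.06 (limma, adjusted p = 0.000695). The fibrillar collagen gene Col3a1 fell by 0.31 ± 0.07 (adjusted p = 0.00921), and Islr fell by 0.16 ± 0.04 (adjusted p = 0.0131). The other called genes were Col1a1, a fibrillar collagen, which fell by 0.24 ± 0.06 (adjusted p = 0.0266), and Gata4, a cardiac transcription factor, which rose by 0.17 ± 0.05 (adjusted p = 0.0275); this pair was named after its values were seen. In females 1 of 31 identity genes was higher and 3 lower: Abca8a rose by 0.41 ± 0.08 (adjusted p = 0.00604), and Col3a1 fell by 0.46 ± 0.09 (adjusted p = 0.0101), Col1a1 by 0.40 ± 0.09 (adjusted p = 0.0157) and Islr by 0.19 ± 0.05 (adjusted p = 0.0486). In males 0 of 31 passed by limma (7 at an unadjusted p under 0.05), with Col3a1 at -0.17 ± 0.10 (adjusted p = 0.498) and Col1a1 at -0.09 ± 0.09 (adjusted p = 0.725). The difference in response between the sexes did not pass for Col3a1 (-0.29 ± 0.14, adjusted p = 0.667) or Col1a1 (-0.31 ± 0.13, adjusted p = 0.581), and 0 of 31 identity genes passed that test (4 at an unadjusted p under 0.05). Gene-by-gene direction over the whole table depended on scaling: 363 genes were higher and 253 lower as deposited, and 335 higher and 457 lower after median-ratio scaling. The corresponding splits were 104 and 103 against 118 and 181 in males, and 202 and 107 against 194 and 199 in females.

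Genes of the members' molecular partners were read over both sexes, where 5.67% of all tested genes passed. Among the 3 E-proteins that pair with TCF21, Tcf3 rose by 0.22 ± 0.04 over both sexes (limma, adjusted p = 0.00318), while Tcf4 (0.08 ± 0.03) and Tcf12 (0.03 ± 0.03) did not pass. The 5 tested genes of 6 PDGF ligands and receptors had 0 calls by limma (1 at an unadjusted p under 0.05), with Pdgfrb, the pericyte receptor, at 0.12 ± 0.05 (adjusted p = 0.192). The 4 tested of 5 prolyl peptidases related to FAP, the 6 tested of 11 terminal complement genes and their inhibitors, and the 13 tested of 14 early complement genes also had 0 calls by limma, with 0, 0 and 1 genes at an unadjusted p under 0.05. In these 4 lists the medians lay between -0.03 and -0.003.

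Other cell types in the tissue were read from their markers over both sexes. Endothelial genes had 2 of 10 higher and 0 lower by limma, with 8 positive estimates and 6 genes at an unadjusted p under 0.05. Emcn rose by 0.29 ± 0.05 (limma, adjusted p = 0.00101) and Tek by 0.165 ± 0.048 (adjusted p = 0.0495). Esam went the other way, at -0.14 ± 0.04 (limma, adjusted p = 0.0543). Macrophage genes had 1 of 7 lower by limma and 3 at an unadjusted p under 0.05. Lyve1 fell by 0.45 ± 0.08 (adjusted p = 0.00114), while Cd68 was at 0.259 ± 0.085 (adjusted p = 0.0906). Cardiomyocyte (12 tested), atrial (8), smooth muscle (7), adipocyte (7), epicardial and mesothelial (2), Schwann and neuronal (2), and T and NK cell (1) genes had 0 calls by limma, and at an unadjusted p under 0.05 there were 2 atrial genes, 1 epicardial or mesothelial gene and 0 in the other 5 lists. In males alone the mesothelial gene Upk3b fell by 0.56 ± 0.14 (adjusted p = 0.0442). Smooth muscle genes had a median change of 0.23 in males, with 6 of 7 positive, and -0.36 in females, with 0 of 7 positive, and 0 genes passed by limma in either sex or in the difference between them (0, 3 and 5 at an unadjusted p under 0.05). Meox1 also had estimates of opposite sign in the sexes. Acta2, Tagln and Cnn1 are in both the smooth muscle list and the fibroblast activation list, so the 2 lists are not separate readings. Summed smooth muscle levels overlapped between all 4 groups, at 117 to 195, 145 to 204, 130 to 236 and 111 to 180 FPKM in normal and dysbiotic males and normal and dysbiotic females, and their part in the Meox1 values was not tested.

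**Figure D4:**
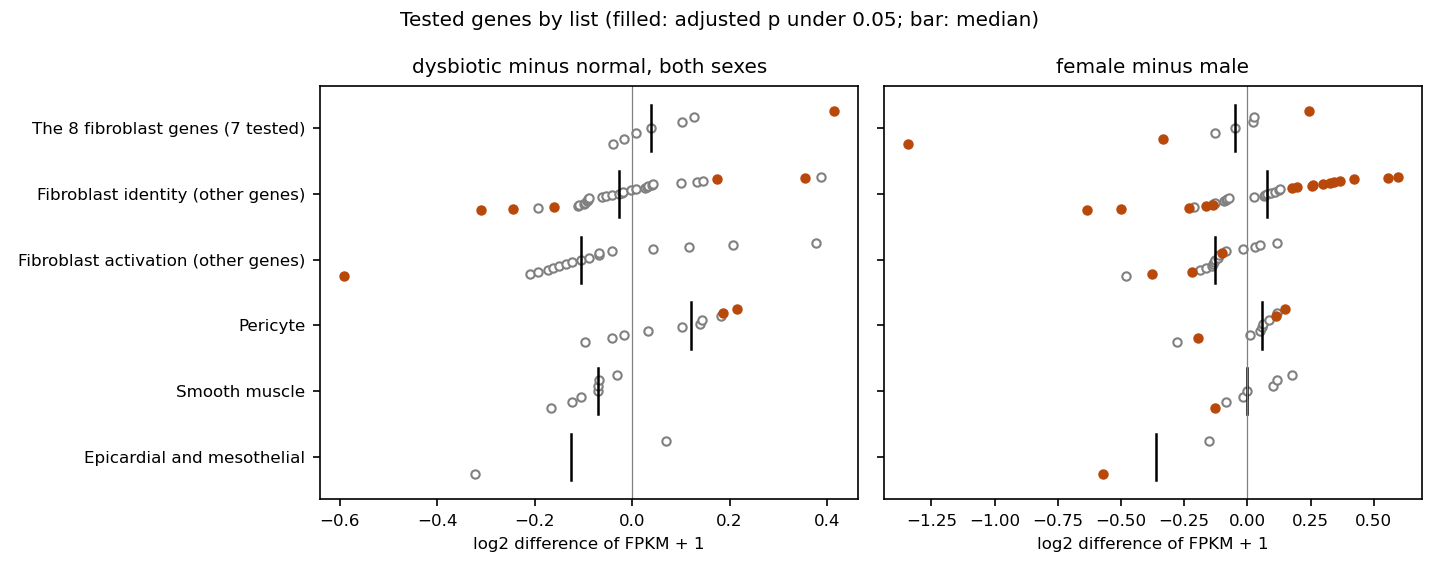
Log2 changes of single genes (points) in the fibroblast and marker lists, with list medians (lines), dysbiotic minus normal over both sexes and female minus male; filled points passed limma at an adjusted p of 0.05. Cd248 at 0.41 is the one member called for the microbiome, and C7 at -1.34 is the member farthest from 0 between the sexes.

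C7 separated the sexes completely. In males it was 5.72, 5.04, 5.29 and 4.30 FPKM with the normal microbiome and 5.06, 4.93, 5.70, 5.09 and 4.34 with the dysbiotic. In females it was 1.19, 1.28, 1.58, 1.13 and 1.38 FPKM with the normal microbiome and 1.24, 1.86, 1.01, 1.99 and 1.33 with the dysbiotic. The lowest male, at 4.30 FPKM, stood above the highest female, at 1.99, and 2.88% of tested genes had no overlap between all males and all females.

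Male levels of C7 were 3.88 times as high as female levels with the normal microbiome and 3.38 times as high with the dysbiotic. On the log2(FPKM + 1) scale C7 was lower in females by 1.34 ± 0.07 (change of -1.34, interval -1.49 to -1.20; limma, adjusted p = 9.37e-11), and without the 4 Alb libraries the difference was -1.28 (adjusted p = 9.11e-09). The microbiome response of C7 did not pass a test of difference between the sexes (0.10 ± 0.14, interval -0.19 to 0.40, adjusted p = 0.924). Ugdh (r = 0.847) and Porcn (r = 0.81), which encode a sugar-nucleotide dehydrogenase and an acyltransferase for Wnt proteins, ran closest to C7 after removing group means. C7 lies at chr15:4988762-5063740 on the minus strand, and its span overlaps the small RNA gene Gm25652 on the plus strand. The spans of Pdgfra, Tcf21, Meox1 and Dpt also overlap other annotated genes. Only whole spans were compared, so shared exons were not examined. The strand setting of the counting was not given in the sources used here, so any effect of these overlaps on the levels is unknown.

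**Figure D5:**
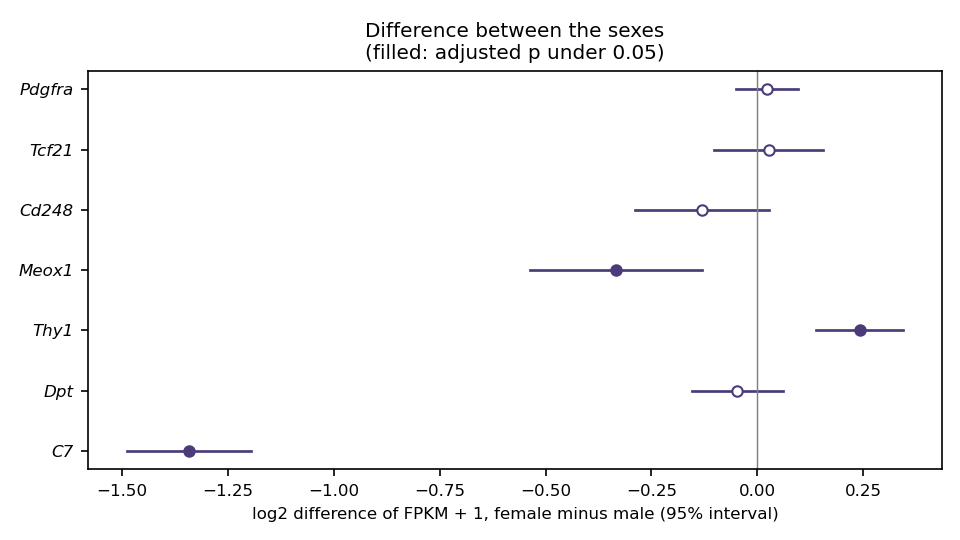
Female minus male difference on log2(FPKM + 1) for the 7 tested members over both microbiomes, with 95% intervals (limma). C7 (-1.34) and Meox1 (-0.33) lie below 0 and Thy1 (0.24) above it, and the other 4 intervals cross 0.

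Other complement genes were read beside C7. Of 6 tested terminal complement genes and inhibitors, 0 passed between the sexes (0 at an unadjusted p under 0.05), with the inhibitor Cd59a at 0.08 ± 0.04 and the median of the list at 0.06 against 0.04 for all genes. Of 13 early complement genes, 3 were higher in females and 1 lower, beside 23.4% higher and 7.94% lower among all tested genes. Cfd, the protease factor D, which fat cells secrete, was higher by 1.94 ± 0.33 (limma, adjusted p = 0.000416) and C1qb by 0.16 ± 0.04 (adjusted p = 0.00374), while C4b was lower by 0.40 ± 0.09 (change of -0.40, adjusted p = 0.00301). Adipocyte genes were also higher in females in 3 of 7 cases, with summed levels of 13.6 to 59.9 FPKM in males and 33.3 to 120 in females, and this list also holds Cfd. Epicardial and mesothelial genes summed to 4.98 to 8.09 FPKM in males and 3.88 to 6.18 in females, and Aldh1a2, the retinoic acid synthase of the epicardium, was lower in females by 0.57 ± 0.09 (change of -0.57, adjusted p = 0.000139). The part of these cell types in the C7 result was not tested.

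Thy1 was higher in females. It was 1.93, 2.14, 1.97, 2.08 and 1.87 FPKM in normal females and 1.98, 2.19, 2.51, 1.81 and 1.97 in dysbiotic females, against the male values of 1.27 to 2.02 given above. With the normal microbiome every female was above every male, as for 18.5% of tested genes in either direction, and with the dysbiotic microbiome the sexes overlapped. The difference was 0.24 ± 0.05 (limma, adjusted p = 0.00107), with mean levels 1.39 times as high in females with the normal and 1.21 times with the dysbiotic microbiome. Thy1 also has a GC-rich transcript (55.8%, above 80.5% of tested genes). Without the 4 Alb libraries the difference was 0.25 (adjusted p = 0.00233). With the GC correction it was 0.14 (adjusted p = 0.0166), and with that correction and without the 4 Alb libraries it was 0.12 (adjusted p = 0.0834). Mouse T cells carry Thy1, and T and NK cell genes, of which 1 of 12 passed the filter, summed to 1.23 to 1.77 FPKM in males and 1.14 to 4.12 in females. Uchl1, from the Schwann and neuronal list, was higher in females by 0.19 ± 0.06 (adjusted p = 0.0185), with list sums of 8.05 to 11.6 FPKM in males and 9.82 to 11.6 in females. The part of these cells was not tested.

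Meox1 was lower in females by 0.33 ± 0.10 (change of -0.33; limma, adjusted p = 0.0140). With the dysbiotic microbiome every male was above every female (9.49% of tested genes separated there), and the male mean was 1.76 times the female mean. With the normal microbiome the sexes overlapped, at 3.77 ± 0.189 FPKM in males and 3.61 ± 0.5 in females. Without the 4 Alb libraries the estimate was -0.28 (adjusted p = 0.0448).

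In all, 3 of 7 members passed between the sexes, 1 higher (Thy1) and 2 lower (C7 and Meox1) in females, against 31.4% of all tested genes (23.4% higher, 7.94% lower). Over all genes, 2548 were higher and 863 lower as deposited, and 1718 higher and 1822 lower after median-ratio scaling, under which the same signs were kept for these 3 members. Cd248 was not called between the sexes (-0.13 ± 0.08, adjusted p = 0.205) but was lower in females after the GC correction (-0.27, adjusted p = 0.00247). Pdgfra (0.02 ± 0.04), Tcf21 (0.03 ± 0.06) and Dpt (-0.05 ± 0.05) did not pass, nor did Fap (0.12 on log2(FPKM + 0.1), exact permutation p = 0.243).

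Among the other fibroblast identity genes, 11 of 31 were higher and 5 lower in females. Their median difference was 0.08 against 0.04 for all genes, and 19 of 31 were positive. Their summed level, as deposited, was 716 to 849 FPKM in normal males and 787 to 819 in dysbiotic males. In females it was 913 to 978 FPKM with the normal microbiome and 867 to 986 with the dysbiotic, so the sexes did not overlap in this sum. Among single tested genes, 2.88% had no overlap between the sexes. The most abundant genes weigh most in such a sum, and it was not computed again after rescaling. The part of this summed difference in the members' sex differences was not tested. Smoc2, a calcium-binding matrix protein, was higher by 0.42 ± 0.04 (limma, adjusted p = 4.71e-07) and Clec3b, which encodes tetranectin, by 0.56 ± 0.07 (adjusted p = 7.03e-06). Hsd11b1, the enzyme that regenerates active glucocorticoid, was lower by 0.64 ± 0.08 (change of -0.64, adjusted p = 1.02e-05). Among activation genes, 0 of 17 were higher and 3 lower in females: Thbs4, Ddah1 and Prrx1, at -0.38, -0.22 and -0.10.

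Covariation of the 8 genes from heart to heart was examined pair by pair. After removing group means, the 28 pairs of members had Pearson correlations from -0.308 to 0.655 with a median of 0.052, and 15 were positive. In all, 0 pairs passed after adjustment over the 28 (permutation test, 100000 resamples), and 3 had an unadjusted p under 0.05 for r. Meox1 and Thy1 had r = 0.655 (permutation p = 0.0199, adjusted p = 0.3) and rho = 0.704 (permutation p = 0.00623, adjusted p = 0.174), and r = 0.587 without the 2 farthest hearts. Pdgfra and C7 had r = 0.642 (permutation p = 0.0273, adjusted p = 0.3), rho = 0.624 (permutation p = 0.0223), and r = 0.725 without the 2 farthest hearts. For Tcf21 and Meox1, r was 0.426 (permutation p = 0.0321) and rose to 0.486 without the 2 farthest hearts. The points share a library each, so differences in composition between tissue pieces enter every pair. The closest genes to the other members were Trip12 for Pdgfra (r = 0.859), Pomt1 for Tcf21 (r = 0.799), Cenpx for Thy1 (r = 0.862), and Ptgfr, a prostaglandin receptor gene, for Dpt (r = 0.917).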

How the data were processed

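Poly(A)-selected RNA of 19 hearts was grouped by sex and microbiome from the labels. Per the submitters' processing notes, cutadapt 1.9, HISAT2 2.0.4, StringTie 1.3.4d and DESeq2 were used. A human build is named there, but the table carries Ensembl IDs of mouse genes. GENCODE on GRCm38, used here for coordinates, held 99.7% of them. Per the file headers, the authors deposited FPKM per gene and library, with a ratio (fold change) of dysbiotic over normal, its log2 value, a p-value and a q-value. The deposited ratio equalled the ratio of mean FPKM within 0.1% for 93.0% of genes. Only 19.0% to 31.0% of low FPKM fell on whole reads (tolerance 0.02), so counts were not recovered, depth is unknown and no counting interval is given.

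A gene was tested if 4 or more libraries reached 1 FPKM (10866 genes). The model was limma 3.58.1 in R 4.3.3, with a mean-variance trend and robust moderation, on log2(FPKM + 1) with 1 mean per group. The 5 contrasts (both sexes, males, females, their difference, female against male) were tested two-sided, with Benjamini-Hochberg adjustment at 0.05. Fap was below this filter. The fit was tested on simulated data. The members, the 17 other gene lists and the tests were chosen with earlier results of these data known. Up to 3 genes per list were named by smallest p in the comparison described, and the nearest genes by Pearson correlation of residuals. Other settings tried were 3 ways of scaling, the filter, the pseudocount, a fit with no sex term, a replicate block, array weights and the loss of each library. The GC correction and the removal of 4 libraries by Alb were added after seeing the data. Figures used Python 3.11.15 and matplotlib 3.10.9.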

Additional observations from a re-analysis of the deposited data

Results flagged for a closer look

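A single heart stood far from the others of its group, by a gap test at the 95% level, in 2 of the 32 sets formed by 8 genes in 4 groups. Chance flags about 1 set in 20. Pdgfra was 3.09 FPKM in replicate 4 of the females with the normal microbiome, against 2.76 to 2.82 in the other 4 (gap over range 0.808). Dpt was 39.5 FPKM in replicate 5 of the males with the dysbiotic microbiome, against 43.5 to 44.0 in the other 4 (gap over range 0.886). The latter heart is 1 of the 4 at the extremes of Alb, at 0.574 FPKM. Neither gene passed a test in any comparison with or without these hearts.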

How the results depend on the processing

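The Cd248 rise over both sexes passed under all settings run, at 0.36 to 0.52, and without each library in turn at 0.39 to 0.46. The C7 and Meox1 sex differences also passed under all of them (C7 -1.80 to -1.28, with -1.80 at a pseudocount of 0.1; Meox1 -0.42 to -0.28). That of Thy1 was lost under 1 setting, given above. Of 1106 comparisons of a member's value with its main value, 46 had the opposite sign, none of a called result. The number of members called in males was 0 with no expression filter, with the replicate number as a block and with males fitted alone, and 0 to 1 without single libraries. In females it was 1 with median-ratio scaling, upper-quartile scaling, the block, array weights and the GC correction, and 0 to 1 without single libraries. Over all genes, calls in males numbered 97 with no filter, 106 with the block and 69 with males alone, against 207 (60 to 258 without single libraries). In females they numbered 585 with array weights, against 309 (167 to 357). In the difference between the sexes they numbered 22 with no filter, 85 with array weights and 65 with the GC correction, against 43 (24 to 102). Over both sexes, 270 were called with no sex term, against 616. The cause was not tested. Deviations of same-numbered hearts from their group means correlated at r = -0.489 to 0.529, with 10 of 27 pairs over 0.1. Differently numbered hearts were not correlated for comparison, so these values cannot decide whether the numbers pair samples. With the replicate number as a block the Cd248 estimate was 0.41 in males (adjusted p = 0.0599, limma) and 0.38 in females (adjusted p = 0.0389). Depth is unknown, so its limit on single genes could not be set. The lists of other genes were not counted again without the 4 libraries at the extremes of Alb.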
